A study of Homo sapiens with 6 samples.

Results

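The transcription factors of myeloid differentiation followed here in NB4 cells after Tanshinone I (Tan I) treatment were SPI1, CEBPA, CEBPB, CEBPD, CEBPE, GFI1, RUNX1, MYB, IRF8 and LMO2. They were taken by symbol, and all 10 were found among the 18625 genes of the expression table. NB4 is an established human acute promyelocytic leukemia line that carries the PML-RARA fusion. One group received DMSO, the solvent, and the other 10 μM Tan I, a lipid-soluble compound of Salvia miltiorrhiza studied here as an inhibitor of leukemic growth, each for 3 days. RNA-seq was done on 3 libraries per group. All libraries came from this single line, and nothing in the labels says whether the replicates were separate cultures, so the p-values measure only the spread between these libraries, which may be technical.

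Myeloid cells mature from stem and progenitor cells through the promyelocyte to the granulocyte or the monocyte. PU.1 and the C/EBP factors switch on the genes of these lineages, RUNX1 and MYB act in progenitors, GFI1 represses monocyte genes on the way to the granulocyte, and IRF8 directs the monocyte and dendritic branches. In acute promyelocytic leukemia, PML-RARA holds cells at the promyelocyte stage.

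The DMSO libraries held between 25356503 and 31679138 reads on the listed genes, and the Tan I libraries between 21502760 and 24298627. Each Tan I library thus held fewer reads than each DMSO library, and the part of depth in the changes below was not tested. Normalized counts below are reads divided by 1 size factor per library. The granule genes of the promyelocyte were present, with MPO between 60389 and 64107 normalized counts in DMSO, and ELANE was not analysed here. The first principal component of all genes took 70.8% of the variance and did not follow treatment. Its scores were -48.0, 41.1 and -26.7 in DMSO replicates 1, 2 and 3, and -46.8, 8.65 and 71.6 in the Tan I replicates. DMSO replicate 2 therefore stood on the positive side with Tan I replicates 2 and 3, and Tan I replicate 1 stood with DMSO replicates 1 and 3. The summed normalized counts of the libraries stood in the same order as the scores. They rose from 2.36e+07 in DMSO replicate 1 to 2.87e+07 in Tan I replicate 3, and what set this order was not tested. Where leaving out a library changed the call of a factor, the limma p-value without it is given. No such values are given for the other genes named.

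GFI1 and MYB fell with Tan I, by 0.33 and 0.32 on the log2 scale, and were the 2 factors past the unadjusted rule. SPI1 (0.36), CEBPD (-0.35) and LMO2 (-0.35) had log2 fold changes at least as large in size, with a wider spread between libraries, and did not pass. A gene was called when limma gave an unadjusted p of at most 0.05 and the log2 fold change was 0.25 or more in size. By this rule 2 of the 9 factors tested were called, against 2.42% of the 16887 genes tested (408 genes). Over all genes 1.1% were called lower and 1.32% higher. After Benjamini-Hochberg adjustment limma called 0% of the genes, including all 9 factors (adjusted p = 0.999 for each), and the lowest adjusted p of any gene was 0.118. On the recovered reads, edgeR also called 0 genes after adjustment and DESeq2 called 16. The median log2 fold change was -0.12 over the 9 factors and -0.00162 over all genes tested. IRF8 was below the minimum mean of 10 normalized counts and was not tested. In bulk RNA, fewer cells of a type and less RNA per cell cannot be told apart.

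**Figure D1:**
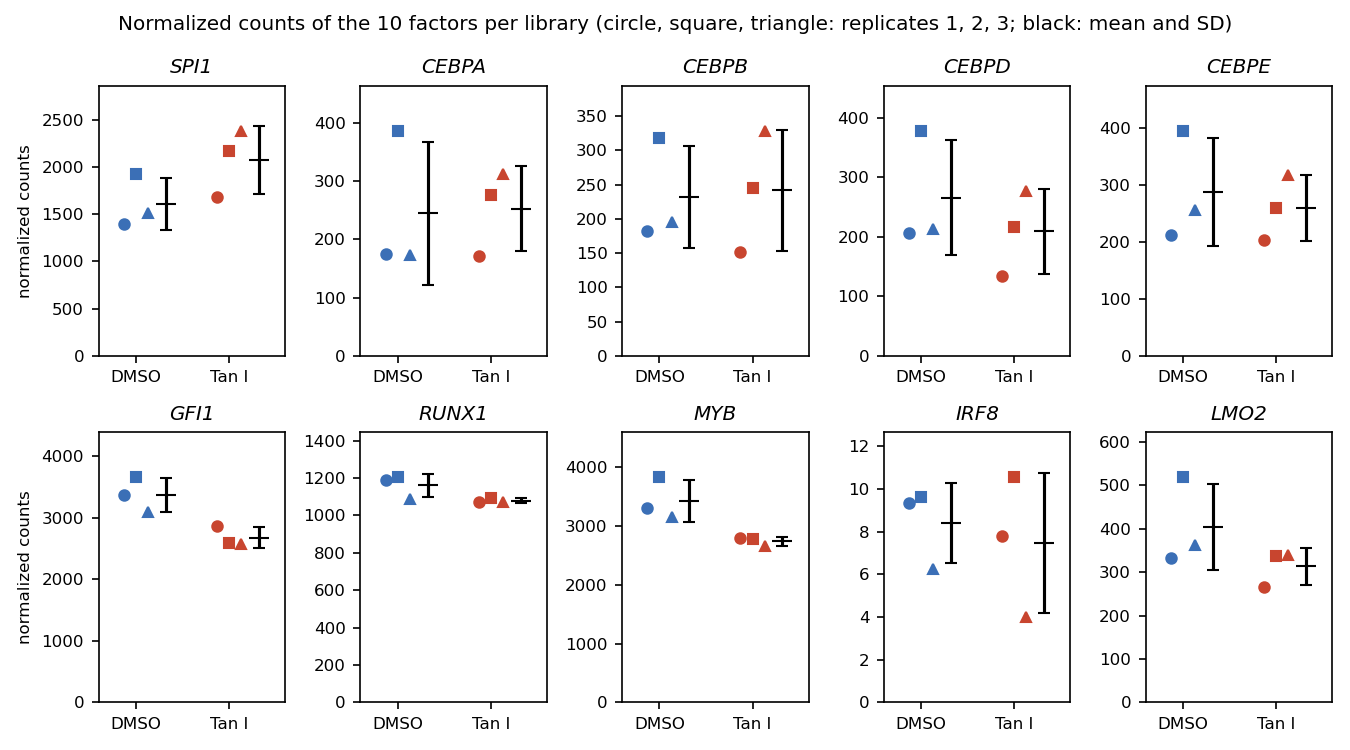
Normalized counts of each of the 10 factors in the 3 DMSO and 3 Tan I libraries, with 1 point per library (circle, square and triangle for replicates 1, 2 and 3) and the group mean with its SD in black. The GFI1 and MYB libraries of Tan I all lie below those of DMSO, and the groups overlap for the other 8 factors.

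GFI1 (ENSG00000162676) encodes a zinc-finger repressor that granulocyte differentiation requires. It lies on chr1:92473043-92486925, minus strand, of GRCh38 and has 7 exons in its principal transcript. In DMSO its normalized counts were 3366, 3649 and 3091 in replicates 1, 2 and 3. Tan I gave 2868, 2583 and 2568. Every Tan I library was below every DMSO library. The mean went from 3369 ± 279 (SD, n = 3) to 2673 ± 169 (SD, n = 3), a change of -20.7%. GFI1 fell by 0.33 on the log2 scale in limma (SE 0.11, 95% interval -0.60 to -0.06, unadjusted p = 0.0219, adjusted p = 0.999). The exact permutation test gave p = 0.1, the smallest that 3 against 3 libraries can give. The call was lost without DMSO replicate 1 (limma unadjusted p = 0.0657), DMSO replicate 2 (0.0635), Tan I replicate 2 (0.0809) or Tan I replicate 3 (0.0527), and the direction was kept in each. The log2 fold change ran from -0.33 to -0.27 in these fits.

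MYB (ENSG00000118513) encodes a factor that keeps progenitors immature and proliferating. It lies on chr6:135181308-135219173, plus strand. Its DMSO values were 3299, 3825 and 3150 normalized counts. Under Tan I they were 2801, 2771 and 2652, again all below the lowest DMSO value. The group means were 3424 ± 355 (SD, n = 3) and 2742 ± 78.6 (SD, n = 3), a change of -19.9%. MYB fell by 0.32 on the log2 scale in limma (SE 0.12, 95% interval -0.59 to -0.05, unadjusted p = 0.0276, adjusted p = 0.999), with an exact permutation p = 0.1. Leaving out DMSO replicate 1 (limma unadjusted p = 0.0590), DMSO replicate 2 (0.0791), Tan I replicate 2 (0.0729) or Tan I replicate 3 (0.0622) ended this call too. The antisense gene MYB-AS1 shares 103 bases with MYB exons. Its highest library had 72.7 normalized counts, far below MYB, and strand use in counting is not given in the sources used here.

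GFI1 and MYB were the 2 factors of 9 whose groups did not overlap, while 7.89% of all genes tested (1333 of 16887) showed such separation in either direction.

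The start regions of the called pair were searched for the binding motifs of several of the 10 factors. Each window is the 250 bases before a RefSeq start on GRCh38.p14, read 5′ to 3′ on the strand of the gene, with motif matches in capitals. The letters searched on both strands were TTGCNNAA for C/EBP, GAGGAA for PU.1, TGNGGT for RUNX, TAACNG for MYB and AATCNNNGC for GFI1. Of the 35116 windows of this length, 9.05% held the C/EBP letters, 23.6% those of PU.1, 37.7% those of RUNX, 17.6% those of MYB and 9.65% those of GFI1. The first 2 GFI1 starts, chr1:92486926-92487175 and chr1:92486100-92486349 on the minus strand, and the MYB start, chr6:135181058-135181307 on the plus strand, read as follows.
GFI1 first start: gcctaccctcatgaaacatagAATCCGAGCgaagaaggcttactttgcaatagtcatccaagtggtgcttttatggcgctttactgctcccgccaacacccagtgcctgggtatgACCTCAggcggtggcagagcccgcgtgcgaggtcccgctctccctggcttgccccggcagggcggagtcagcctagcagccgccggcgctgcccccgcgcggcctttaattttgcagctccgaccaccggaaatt
GFI1 second start: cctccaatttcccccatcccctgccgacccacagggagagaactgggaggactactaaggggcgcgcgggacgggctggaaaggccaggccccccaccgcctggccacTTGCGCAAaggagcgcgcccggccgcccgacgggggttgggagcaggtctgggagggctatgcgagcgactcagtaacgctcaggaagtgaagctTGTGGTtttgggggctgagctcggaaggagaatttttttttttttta
MYB: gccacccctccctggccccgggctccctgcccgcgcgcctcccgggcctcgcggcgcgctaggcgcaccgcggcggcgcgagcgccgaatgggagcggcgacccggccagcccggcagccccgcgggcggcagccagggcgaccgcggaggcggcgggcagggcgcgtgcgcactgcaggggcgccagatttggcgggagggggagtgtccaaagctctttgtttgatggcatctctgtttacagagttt
The first GFI1 window held the GFI1 letters and, on the opposite strand, the RUNX letters. The second held C/EBP and RUNX letters. A further GFI1 window, which overlaps a GFI1 exon and is not printed, held PU.1 and RUNX letters. The MYB window held none of the 5. These matches describe letters and not binding, and 7 of the 10 factors had a window used here.

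RUNX1 (ENSG00000159216; chr21:34787801-36004667, minus strand) encodes the DNA-binding partner of CBFB that starts definitive hematopoiesis. DMSO libraries had 1188, 1203 and 1090.0 normalized counts and Tan I libraries 1070, 1095 and 1074. The highest Tan I value lay inside the DMSO range, and RUNX1 varied least of the 10 factors, with a ratio of 1.12 between its highest and lowest library. The log2 fold change was -0.10 (SE 0.10, 95% interval -0.35 to 0.14), which did not pass in limma (unadjusted p = 0.357, adjusted p = 0.999).

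SPI1 (ENSG00000066336; chr11:47354860-47378547, minus strand) encodes PU.1, the ETS factor needed for monocytes and granulocytes. Its normalized counts were 1399, 1921 and 1514 in DMSO. The Tan I libraries had 1679, 2170 and 2380. Tan I replicates 2 and 3 were above all DMSO libraries, and Tan I replicate 1 lay below DMSO replicate 2. The means were 1611 ± 274 (SD, n = 3) and 2077 ± 360 (SD, n = 3), a difference of 28.9% that did not pass in limma (log2 fold change 0.36, SE 0.18, 95% interval -0.05 to 0.78, unadjusted p = 0.0779, adjusted p = 0.999). The exact permutation p was 0.2. Without DMSO replicate 2 the value was 0.50 (limma unadjusted p = 0.0259), and without Tan I replicate 1 it was 0.51 (limma unadjusted p = 0.0179), both past the unadjusted rule. Leaving out any other single library lowered it to between 0.26 and 0.33, and SPI1 did not pass.

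None of the 4 C/EBP genes measured here passed the test, and in each the 2 groups overlapped. CEBPA encodes the C/EBP factor that commits progenitors to the granulocyte path, CEBPB acts in emergency granulopoiesis and macrophages, CEBPD is an inducible family member, and CEBPE drives the late steps and secondary granule genes.

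CEBPA (ENSG00000245848; chr19:33299934-33302534, minus strand, 1 exon) had 175, 386 and 173 normalized counts in DMSO and 171, 276 and 312 in Tan I. Its log2 fold change was 0.11 (SE 0.36, 95% interval -0.74 to 0.96), with an unadjusted p = 0.770 in limma. DMSO replicate 2 was the highest library, and without it the value was 0.49. Without DMSO replicate 1, DMSO replicate 3 or Tan I replicate 3 the value turned to between -0.086 and -0.063.

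CEBPB (ENSG00000172216; chr20:50190830-50192668, plus strand, 1 exon) had 182, 318 and 195 normalized counts in DMSO and 152, 246 and 328 in Tan I. The log2 fold change was 0.04 (SE 0.33, 95% interval -0.73 to 0.81, limma unadjusted p = 0.912). The Tan I libraries held both its lowest and its highest value.

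CEBPD (ENSG00000221869; minus strand, 1 exon) had 206, 378 and 213 normalized counts in DMSO and 134, 217 and 276 in Tan I. The difference was -0.35 on the log2 scale (SE 0.33, 95% interval -1.13 to 0.43, limma unadjusted p = 0.328). It was -0.066 without DMSO replicate 2, -0.059 without Tan I replicate 1 and -0.58 without Tan I replicate 3. Tan I replicate 1 was lowest, and the ratio of the highest to the lowest library was 2.82, the widest of the 9 factors tested.

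CEBPE (ENSG00000092067; chr14:23117036-23120256, minus strand, 2 exons) had 212, 394 and 256 normalized counts in DMSO and 202, 258 and 317 in Tan I. Its log2 fold change was -0.12 (SE 0.27, 95% interval -0.75 to 0.51, limma unadjusted p = 0.664). The groups overlapped over most of their range. Its start window, chr14:23119256-23119505 on the minus strand, is shown because it held PU.1 letters, which stand nearest the start after 2 RUNX matches. The CEBPA and CEBPB windows held no PU.1 letters, and no CEBPD window was used here.
CEBPE: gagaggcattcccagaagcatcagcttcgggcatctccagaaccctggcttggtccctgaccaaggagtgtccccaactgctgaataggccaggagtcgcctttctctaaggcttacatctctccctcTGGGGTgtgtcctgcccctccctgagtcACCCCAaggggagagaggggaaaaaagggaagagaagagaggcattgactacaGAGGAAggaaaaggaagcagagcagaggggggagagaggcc

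The summed normalized counts of the 4 C/EBP genes were 775, 1476 and 838 in DMSO and 659, 997 and 1234 in Tan I. DMSO replicate 2 had the highest sum, and Tan I replicate 1 the lowest. Across the 6 libraries the pairwise Pearson r among these 4 genes ran from 0.843 to 0.939, as a description over libraries that share the axis above. The principal transcripts of SPI1 and these C/EBP genes have GC contents of 64.7 to 66.2%, against 43.9% for MYB, 46.2% for RUNX1, 50.6% for GFI1 and a median of 48.6% over all genes. The part of base composition in these values was not tested apart from a correction for length and GC content, under which SPI1 passed (0.31, limma unadjusted p = 0.0307), MYB kept its call (-0.27, limma unadjusted p = 0.0438) and GFI1 did not (-0.24, limma unadjusted p = 0.0746).

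**Figure D2:**
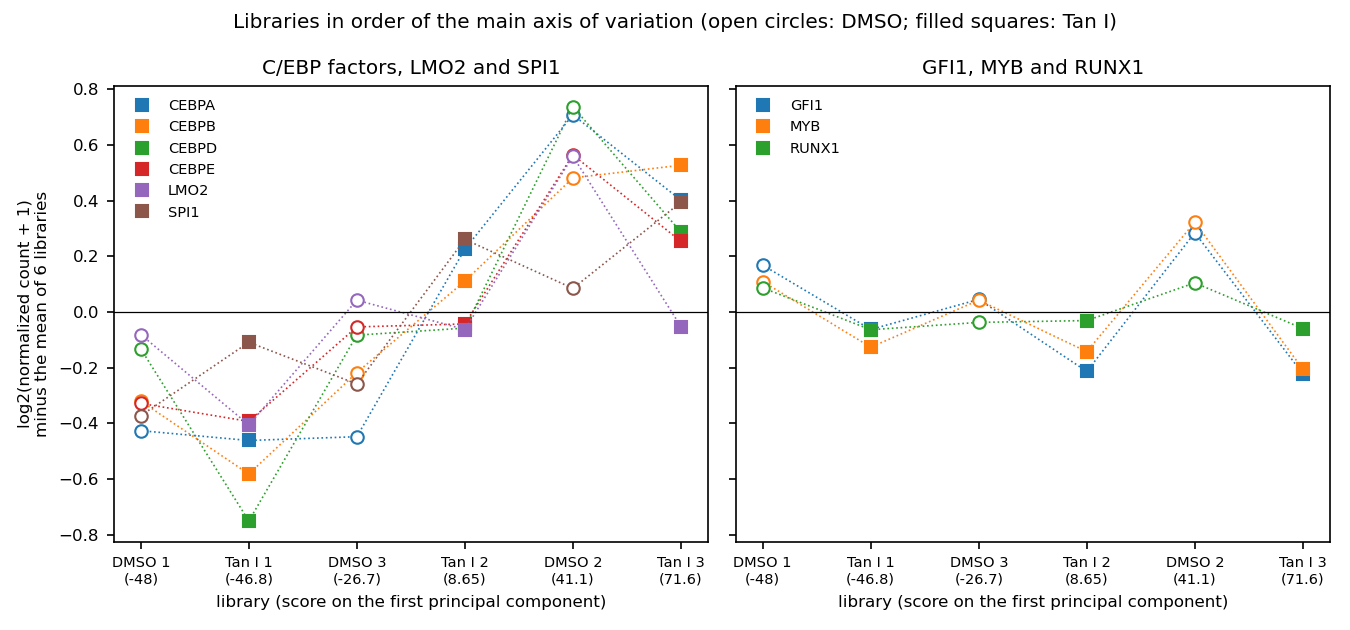
Log2 normalized counts of 9 factors, each minus its mean over the 6 libraries, with libraries ordered by their score on the first principal component. Open circles are DMSO and filled squares Tan I. The C/EBP genes are high in DMSO replicate 2 and Tan I replicate 3 and low in Tan I replicate 1, whereas GFI1 and MYB are lower in each Tan I library than in each DMSO library.

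LMO2 (ENSG00000135363; chr11:33858576-33892076, minus strand) encodes a bridging protein of the TAL1 and GATA complexes in early blood cells. It had 332, 518 and 362 normalized counts in DMSO and 265, 336 and 339 in Tan I. Tan I replicates 2 and 3 lay just above the lowest DMSO library, so the groups overlapped. The means were 404 ± 100.03 (SD, n = 3) and 313 ± 41.9 (SD, n = 3), with a log2 fold change of -0.35 (SE 0.20, 95% interval -0.83 to 0.13, limma unadjusted p = 0.132). The value was -0.15 without DMSO replicate 2 and -0.23 without Tan I replicate 1. With library totals set equal it was -0.41 and passed the unadjusted rule (limma unadjusted p = 0.0482).

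IRF8 (ENSG00000140968; chr16:85899116-85922606, plus strand) was near the limit of detection. It had 10, 10 and 8 recovered reads in DMSO and 8, 10 and 3 in Tan I. The means of 8.40 ± 1.87 and 7.45 ± 3.28 normalized counts (SD, n = 3 each) did not separate (exact permutation p = 0.7). Fitted without the filter on low values, its log2 fold change was -0.22 (limma unadjusted p = 0.662).

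When the score on the first principal component was added as a covariate, 6 of the 9 factors passed the unadjusted rule, where 8.86% of all genes did. With adjustment 3 factors passed, where 1.15% of all genes did (194 genes). These were GFI1 (-0.33, SE 0.07, limma adjusted p = 0.0463), MYB (-0.33, SE 0.07, limma adjusted p = 0.0434) and CEBPD (-0.56, SE 0.12, limma adjusted p = 0.0429). SPI1 (0.26, limma adjusted p = 0.0721), LMO2 (-0.45, limma adjusted p = 0.0666) and CEBPE (-0.28, limma adjusted p = 0.260) passed only the unadjusted rule. CEBPA (-0.11) and CEBPB (-0.17) turned negative in this fit, and neither they nor RUNX1 (-0.11) passed. The score was computed from the same genes and leaves 3 residual degrees of freedom, so this fit is not independent of the first. The score takes up variance between libraries found in the same values, so the SEs and adjusted p-values here may be too small.

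**Figure D3:**
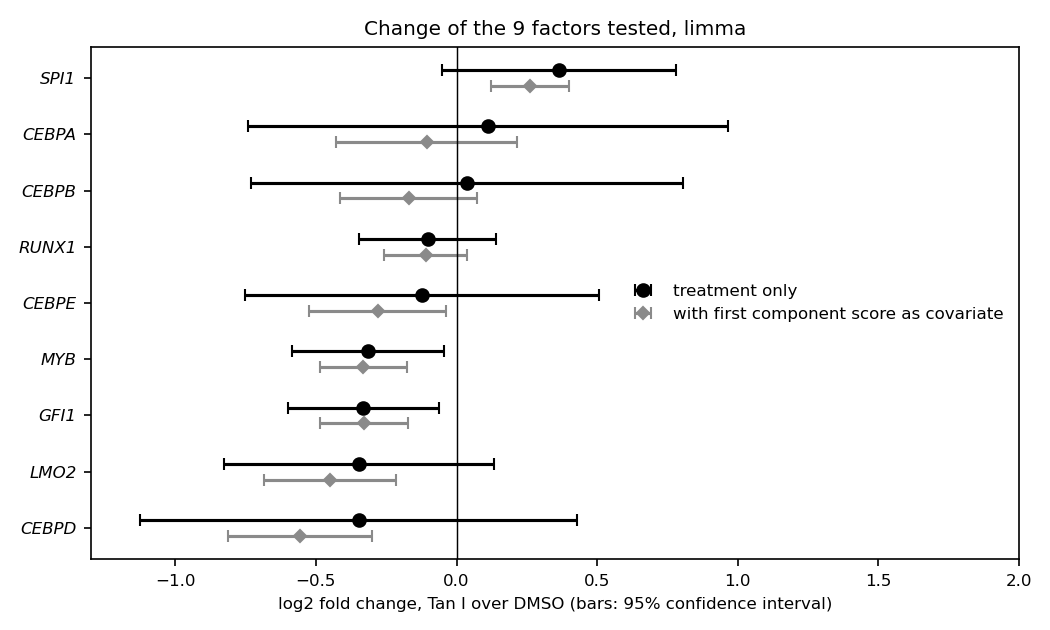
Change with Tan I relative to DMSO (log2) for the 9 factors tested, with 95% confidence intervals, from limma with treatment only (black circles) and with the first component score as a covariate (grey diamonds). With treatment only, the intervals of GFI1 and MYB exclude 0. The interval of CEBPD spans -1.13 to 0.43.

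Levels were compared between genes as normalized counts per kilobase of exons. In DMSO SPI1 was highest with a mean of 790, followed by MYB (623), GFI1 (597), CEBPD (212), CEBPE (163), LMO2 (139), CEBPB (126), CEBPA (94.1) and RUNX1 (74.5). IRF8 was at 1.07. The order under Tan I began with SPI1 (1018), MYB (499) and GFI1 (474). Neighbours in the DMSO order overlapped between libraries, apart from GFI1 over CEBPD and RUNX1 over IRF8. Under Tan I the SPI1 libraries also stood clear of MYB. RUNX1 has a long exon union, and by the length of its principal transcript it ranked at 6 instead of 9.

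**Figure D4:**
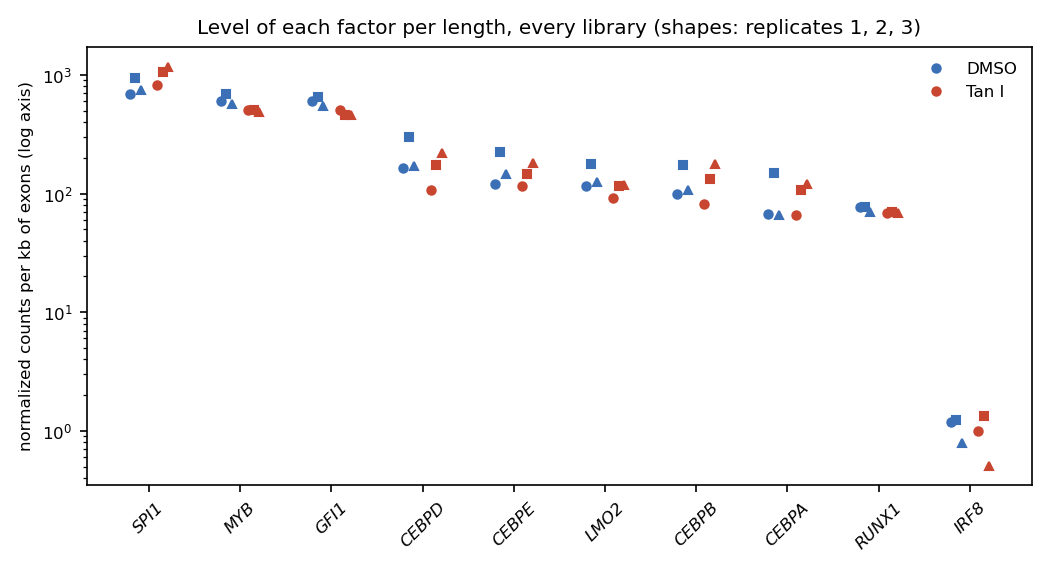
Normalized counts per kilobase of exons for the 10 factors, on a log axis, with 1 point per library and DMSO and Tan I side by side. SPI1, MYB and GFI1 form the upper part of the order in both groups, and IRF8 lies far below RUNX1, the next lowest.

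Each factor was also matched with the gene of the lists below, or the other factors, whose log2 values followed it most closely over the 6 libraries. GFI1 matched MYB (Pearson r = 0.965), and so did RUNX1 (r = 0.888). SPI1 matched CTSC, a granule protease activator (r = 0.982). CEBPA matched NFE2 (r = 0.979), CEBPB matched HOXA10 (r = 0.985), CEBPD matched the granule gene AZU1 (r = 0.983) and CEBPE matched the Fc receptor gene FCGR1A (r = 0.974). LMO2 matched its complex partner TCF3 (r = 0.935), and IRF8 matched IRF4 (r = 0.692). These are descriptions over 6 libraries that share treatment and the main axis, each the highest of many candidates, and nothing follows from them about shared control.

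No related family factor passed the unadjusted rule, which 2.42% of all genes tested passed. Among 3 other C/EBP genes, 10 other ETS and RUNX factors, 9 LMO2 partners and 6 genes for the GFI1 paralogue and the corepressors, 0 passed the unadjusted rule in limma, and the list medians ran from -0.10 to 0.08. The most abundant of them were CEBPG (0.08) and CEBPZ (-0.24), RUNX2 (-0.03) and ELF1 (-0.28), TCF3 (-0.10) and SSBP3 (0.05), and the corepressor enzymes KDM1A (-0.02) and HDAC1 (0.15), all as log2 fold changes.

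Of the 14 monocyte and macrophage factors, 1 was called, against 2.42% of all genes tested, and the median was 0.05. ZEB2 encodes a repressor that acts in the monocyte and dendritic lineages. It had 2603, 1788 and 2085 normalized counts in DMSO and 1910, 1357 and 1111 in Tan I. ZEB2 fell by 0.58 on the log2 scale (SE 0.23) with overlapping groups. JUN (0.11), the most abundant of this list, did not pass. Of the 10 progenitor factors tested, 1 was called, against the same 2.42%, and the median was -0.22. MYC, the driver of growth and ribosome synthesis, had 4064, 5259 and 4870 normalized counts in DMSO and 2990, 3385 and 3958 in Tan I. It fell by 0.46 on the log2 scale (SE 0.15), with every Tan I library below DMSO. Of all genes tested, 7.89% had groups that did not overlap. IKZF1 was at -0.03.

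Granule genes were called in both directions, where over all genes 1.1% were called lower and 1.32% higher. Of the 11 primary granule genes tested, 2 were called lower and 0 higher, with a median of -0.20, and 3 of the 11 had values above 0. MPO, the myeloperoxidase of primary granules, had 33279, 39450 and 37076 normalized counts in Tan I and fell by 0.78 on the log2 scale (SE 0.15). CTSG, a primary granule protease, had 1536, 2392 and 1801 in DMSO and 839, 1263 and 1496 in Tan I, and fell by 0.69 (SE 0.25). Both were lower in every Tan I library, where 7.89% of all genes did not overlap in either direction, and CTSC was at 0.15. Of the 14 secondary and tertiary granule genes listed, 5 were tested. Of these 5, 2 were called higher and 0 lower, with a median of 0.29, and 9 further genes of this list were not analysed here. MMP9, a gelatinase, had 623, 751 and 687 in DMSO and 868, 1031 and 1210 in Tan I, and rose by 0.58 on the log2 scale. CHI3L1, a secondary granule glycoprotein, had 228, 262 and 241 in DMSO and 320, 385 and 368 in Tan I, and rose by 0.55. The study itself took MMP9 from these libraries, so its direction is not independent evidence. The granule lists were also chosen with earlier results of these data known, so their counts only describe these libraries.

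Of the 12 myeloid receptor genes tested, 1 was called higher and 2 lower, where over all genes 1.32% were called higher and 1.1% lower. CSF2RB, the shared chain of the IL-3, IL-5 and GM-CSF receptors, had 425, 463 and 433 normalized counts in DMSO and 644, 584 and 584 in Tan I, and rose by 0.45 on the log2 scale. IL6R, the IL-6 receptor, had 450.4, 491 and 470.4 in DMSO and 328, 378 and 317 in Tan I, and fell by 0.47. FLT3, a progenitor cytokine receptor, had 81.1, 118 and 94.5 in DMSO and 57.7, 56.9 and 73.3 in Tan I, and fell by 0.63. The groups did not overlap for these 3 receptors, as for 7.89% of all genes tested in either direction. CSF3R (-0.19) and CD33 (0.07) did not pass.

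**Figure D5:**
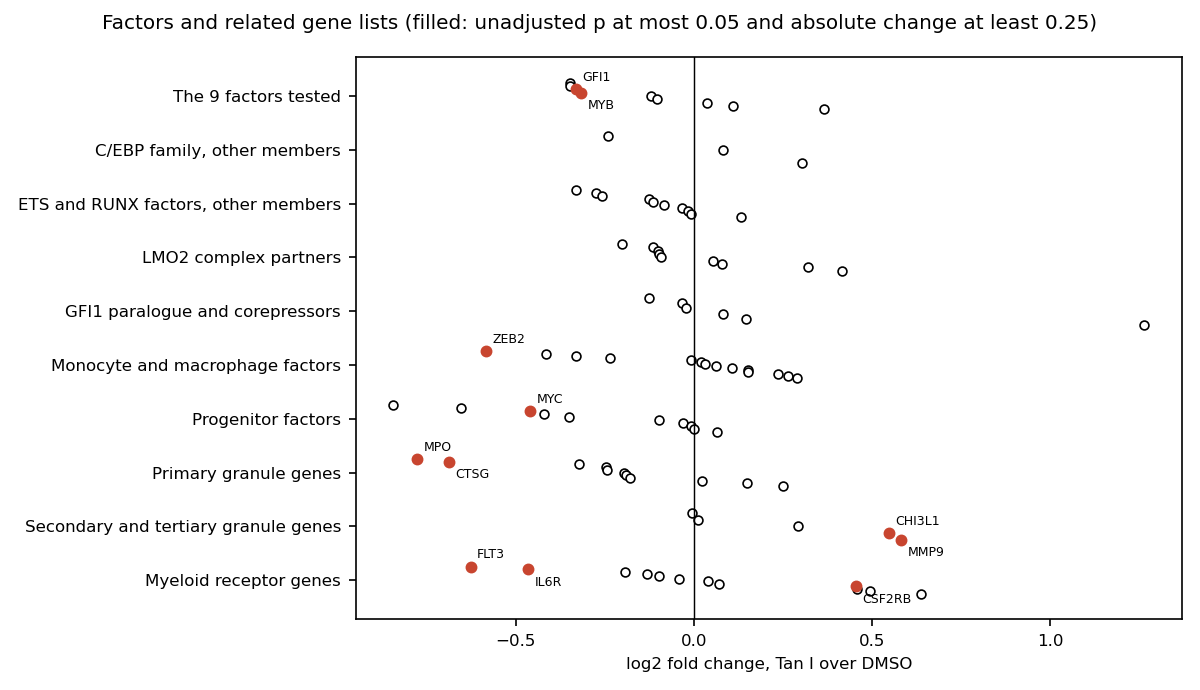
Change with Tan I relative to DMSO (log2) for the 9 factors tested and for the genes of 9 related lists, with 1 point per gene. Filled points passed the unadjusted rule and carry the gene symbol, 2 among the factors and 9 among the 80 list genes tested. Over all genes tested, 2.42% passed.

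Markers of other cell types were measured in part, and some were as high as the factors above. The summed normalized counts of the erythroid markers measured (2 of 7) ranged from 64.9 to 89.6 in DMSO and from 46.7 to 71.4 in Tan I. Those of the B cell markers (3 of 5) ranged from 180.1 to 188 and from 166 to 187, of the T cell markers (3 of 5) from 320 to 479 and from 354 to 620, and of the stromal markers (2 of 4) from 120.4 to 152 and from 99.7 to 151. The 2 megakaryocyte markers measured of 5 summed to between 1263 and 1474 in DMSO and between 1478 and 1734 in Tan I. Most of this was ITGA2B, the platelet integrin alpha chain, which passed the unadjusted rule with a log2 fold change of 0.35. Its values were 1060.2 to 1127 in DMSO and 1332 to 1418 in Tan I. The other, GP1BA, had a log2 fold change of -0.74 (SE 0.70) and did not pass. Per kilobase of exons, ITGA2B had 186 to 249 over the 6 libraries, above RUNX1 with 68.7 to 77.2. The T cell gene CD3D, with 245 to 515 normalized counts over the 6 libraries, had 72.0 to 151 per kilobase of exons. This overlapped the C/EBP factors, which ran from 65.8 to 302. By the length of its principal transcript, CD3D had means of 446 in DMSO and 530 in Tan I, above each C/EBP factor. No measured marker was at 0, and their part in the changes of GFI1 and MYB was not tested.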

How the data were processed

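RNA from NB4 cells was sequenced by the authors (paired ends), aligned to GRCh38 with STAR without reads mapping to several places, and counted with featureCounts. Versions, annotation release and strand setting are not given in the sources used here. The authors deposited a signal value per gene and library, the read count divided by a size factor. Their mean, log2 fold change, standard error, Wald score and p-value columns were not used. At a tolerance of 0.1, 100% of values were whole reads.

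Log2(normalized count + 1) was fitted with limma 3.58.1 in R 4.3.3 (eBayes with trend, treatment only) for 16887 genes with a mean of at least 10, and 1738 were left out. P-values were Benjamini-Hochberg adjusted over these genes. Permutation tests were exact and two-sided. edgeR 4.0.16 and DESeq2 1.42.0 were run on recovered reads. Lengths and coordinates came from GENCODE 44. After seeing the data, a correction for length and GC content was added. The fit was tested on simulated data. The factors and lists were chosen with earlier results of these data known. Named genes were the factors, list genes that were called, the 2 most abundant of each list, and the closest match of each factor, apart from a gene that is not reported here. Intervals cover the spread between libraries. Groups were taken from the sample titles.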

Additional observations from a re-analysis of the deposited data

How the results depend on the processing

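The unadjusted rule called 408 genes, and 1496 with the first component score as covariate, 49 with a log2 change of 1 or more in size, and 161 (without Tan I replicate 2) to 1485 (without Tan I replicate 1) with 1 library left out. After adjustment the count of 0 became 16 in DESeq2 and 194 with the component score. The count of 2 factors became 1 without the variance trend, 6 with the component score, 0 with the fold minimum of 1, 3 with library totals set equal, and 0 to 3 with 1 library left out. It was 0 without DMSO replicate 1, Tan I replicate 2 or Tan I replicate 3, 1 without DMSO replicate 2 and 3 without Tan I replicate 1. With a replicate block 348 genes and 3 factors were called, SPI1 being added (limma unadjusted p = 0.0449). Deviations of same-numbered libraries correlated at 0.751, -0.0881 and -0.451 for replicates 1, 2 and 3. Whether same-numbered libraries were handled together is not given in the labels. GFI1 stayed lower in 19 alternatives (-0.39 to -0.24) and was called in 14, and so did MYB (-0.38 to -0.23, called in 14). SPI1 stayed higher in 19 (0.26 to 0.51, called in 5). CEBPA turned to -0.11 with the component score and ranged from -0.086 to 0.49 with 1 library left out. CEBPB turned to -0.022 after rescaling, -0.17 with the component score and -0.014 with the length and GC correction, and ranged from -0.22 to 0.34 with 1 library left out. CEBPE ranged from -0.32 to 0.13 with 1 library left out. The causes were not tested. IRF8 rests on 3 to 10 reads per library.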

Other observations

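Several genes of the lists differed between libraries more than between treatments, and were picked after their values were seen. DMSO replicate 2 had low levels of immediate early factors, with 434 normalized counts of EGR1 against 1105 to 1603 in the other 5 libraries. JUN was at 1560 there against 3474 to 5789 elsewhere, and FOS was at 476 against 1162 to 2227. ZBTB16, which encodes the progenitor factor PLZF, had 324, 91.5 and 215 normalized counts in DMSO and 259, 89.6 and 46.7 in Tan I. GFI1B, the erythroid and megakaryocytic paralogue of GFI1, had 1.86, 10.6 and 5.47 normalized counts in DMSO and 8.80, 12.7 and 21.3 in Tan I. Its log2 fold change of 1.27 (SE 0.63) did not pass the test.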
